A study of Mus musculus with 6 samples.

Results

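The genes described here encode the subunits of the proteasome, its activators, its inhibitor and the chaperones that assemble it, together with the immunoproteasome subunits. They were chosen by symbol: rows of the count table whose name begins with Psm, a letter from a to g and a number, leaving out pseudogenes named with -ps, with at least 20 counts summed over all libraries. The rule gave 49 genes of the 15458 rows in the table, and all 49 also passed the filter on low counts that left 13120 genes tested. The lowest sums were 268 counts for Psmc3ip, 798 for Psma8 and 874 for Psme2b, so that no gene lay near the minimum. One of the 49, Psmc3ip, encodes a recombination factor that binds a proteasome ATPase and is not itself a subunit; it is counted with the members and named where it matters.

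Messenger RNA was sequenced from sorted Kupffer cells, which are the macrophages that reside in the liver. They came from wild type C57BL/6 mice that carried tumours of Hepa1-6, a mouse hepatoma line. In the KC_EV group the tumour cells held an empty vector, and in the KC_Epo group they overexpressed erythropoietin (Epo), the hormone that drives red cell formation. Both groups carried tumours, no mouse without a tumour was included, and the livers were taken on day 18 after implantation. The erythropoietin came from the implanted line, and the sources used here give neither its promoter nor the age of the mice. Each group had 3 libraries; the labels number mice within a group but do not state separate animals in any other way, so the p-values reflect spread among these libraries alone, which may be technical. The comparison asks how expression in Kupffer cells differed when the tumour made erythropoietin.

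As background, the proteasome is a barrel-shaped protease that degrades proteins tagged with ubiquitin. Its 20S core is built from rings of alpha and beta subunits, and only Psmb5, Psmb6 and Psmb7 among the constitutive beta subunits carry the catalytic sites. The 19S cap, with ATPase and non-ATPase subunits, recognises and unfolds the substrates. Interferon-gamma and the hematopoietic lineage drive a variant, the immunoproteasome, in which Psmb8 takes the place of Psmb5, Psmb9 that of Psmb6 and Psmb10 that of Psmb7. The PA28 activator made of Psme1 and Psme2 is induced by the same signals. Both favour the cutting of peptides that suit MHC class I, and macrophages are among the cells that carry them without infection.

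The genes of the immunoproteasome lie in groups, and some share regulatory DNA, so the sequences of 4 starts are shown before the values. Psmb8 and Psmb9 neighbour Tap1 and Tap2, the peptide transporter genes, in the MHC region, and Psme1 and Psme2 lie close together, with Emc9 next to both. The sequences are from RefSeq on the build GRCm38.p6, which is not the build the submitters name, and are written 5′ to 3′ on the strand of the gene. Psmb9 and Tap1 are transcribed away from each other, and the sequence given for Psmb9 is the whole stretch between the starts of both genes, at chr17:34187331-34187555 on the minus strand. The others hold the 250 bases before the start, at chr17:34197945-34198194 on the plus strand, chr14:55591102-55591351 on the minus strand and chr14:55578244-55578513 on the plus strand, where Psme1 runs 20 bases past the start. Capitals mark a match to one of 4 motifs: the ISRE core, GAAA repeated after a gap of 2 bases, bound by interferon regulatory factors, the GAS core TTCNNNGAA of interferon-gamma responsive genes, the antioxidant response core TGACNNNGC bound by NRF1 and NRF2, or the CCAAT box.
Psmb9: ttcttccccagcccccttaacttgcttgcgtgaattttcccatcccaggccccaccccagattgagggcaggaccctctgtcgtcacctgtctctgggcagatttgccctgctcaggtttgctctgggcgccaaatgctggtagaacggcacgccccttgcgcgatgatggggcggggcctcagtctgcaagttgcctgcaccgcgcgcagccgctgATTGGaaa
Psmb8: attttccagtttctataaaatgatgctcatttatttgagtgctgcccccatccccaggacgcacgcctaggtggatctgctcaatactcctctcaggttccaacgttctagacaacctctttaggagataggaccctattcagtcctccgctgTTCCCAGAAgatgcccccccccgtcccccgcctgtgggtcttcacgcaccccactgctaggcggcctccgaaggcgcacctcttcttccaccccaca
Psme2: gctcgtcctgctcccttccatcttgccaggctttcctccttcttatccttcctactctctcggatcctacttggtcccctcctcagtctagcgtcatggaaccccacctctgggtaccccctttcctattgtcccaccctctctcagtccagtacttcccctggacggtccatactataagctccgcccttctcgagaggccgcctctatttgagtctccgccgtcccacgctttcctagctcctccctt
Psme1: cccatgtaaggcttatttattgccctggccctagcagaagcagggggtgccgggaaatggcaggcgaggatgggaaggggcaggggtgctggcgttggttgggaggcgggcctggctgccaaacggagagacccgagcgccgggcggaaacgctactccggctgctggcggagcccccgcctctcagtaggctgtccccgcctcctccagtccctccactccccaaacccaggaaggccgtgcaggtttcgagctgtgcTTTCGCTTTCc
In these windows Psmb9 held a CCAAT box on its opposite strand, first base at -8 from the start. Psmb8 held a GAS core at -97 and Psme1 an ISRE core at 10, on the opposite strand. The stretch for Psme2 held none of the 4, which says only that these letters are not in this window.

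Promoters of 41 members were in the table, as 44 windows of 300 bases because some genes have more than 1 start. Of these, 5 held the ISRE core (11.4%), against 3.44% of all 32851 promoters searched on both strands. The ISRE matches were in Psme1, Psmb3, Psmd4, Psmd9 and Psmg4. The GAS core was in 3 windows (6.82%, against 8.30% of all) and the antioxidant response core in 6 (13.6%, against 12.4%). The CCAAT box was in 14 (31.8%, against 37.4%). A match is a description of letters and shows no binding.

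Most proteasome genes did not pass the test, and those that did were all lower in KC_Epo. By edgeR's quasi-likelihood test at an adjusted p of 0.05, 7 of 49 were lower and 0 were higher. The 7, or 14.3%, were below the background, since 32.3% of all genes tested were called. In the lower direction alone the background was 15.4%, close to the share of the members, and in the higher direction it was 16.9%. The median log2 fold change (KC_Epo minus KC_EV) was -0.07 over the members and -0.0045 over all genes tested. The called genes were Psme2, Psmb9 and Psmb8 of the immunoproteasome group, the alpha subunit Psma6, the constitutive catalytic subunit Psmb7, and the chaperones Psmd10 and Psmg2. In bulk samples, fewer cells of a type and less RNA per cell cannot be told apart. The groups did not overlap for 13 members, 12 of them lower in KC_Epo; over all genes 48.3% did not overlap and 24.2% were lower without overlap.

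**Figure D1:**
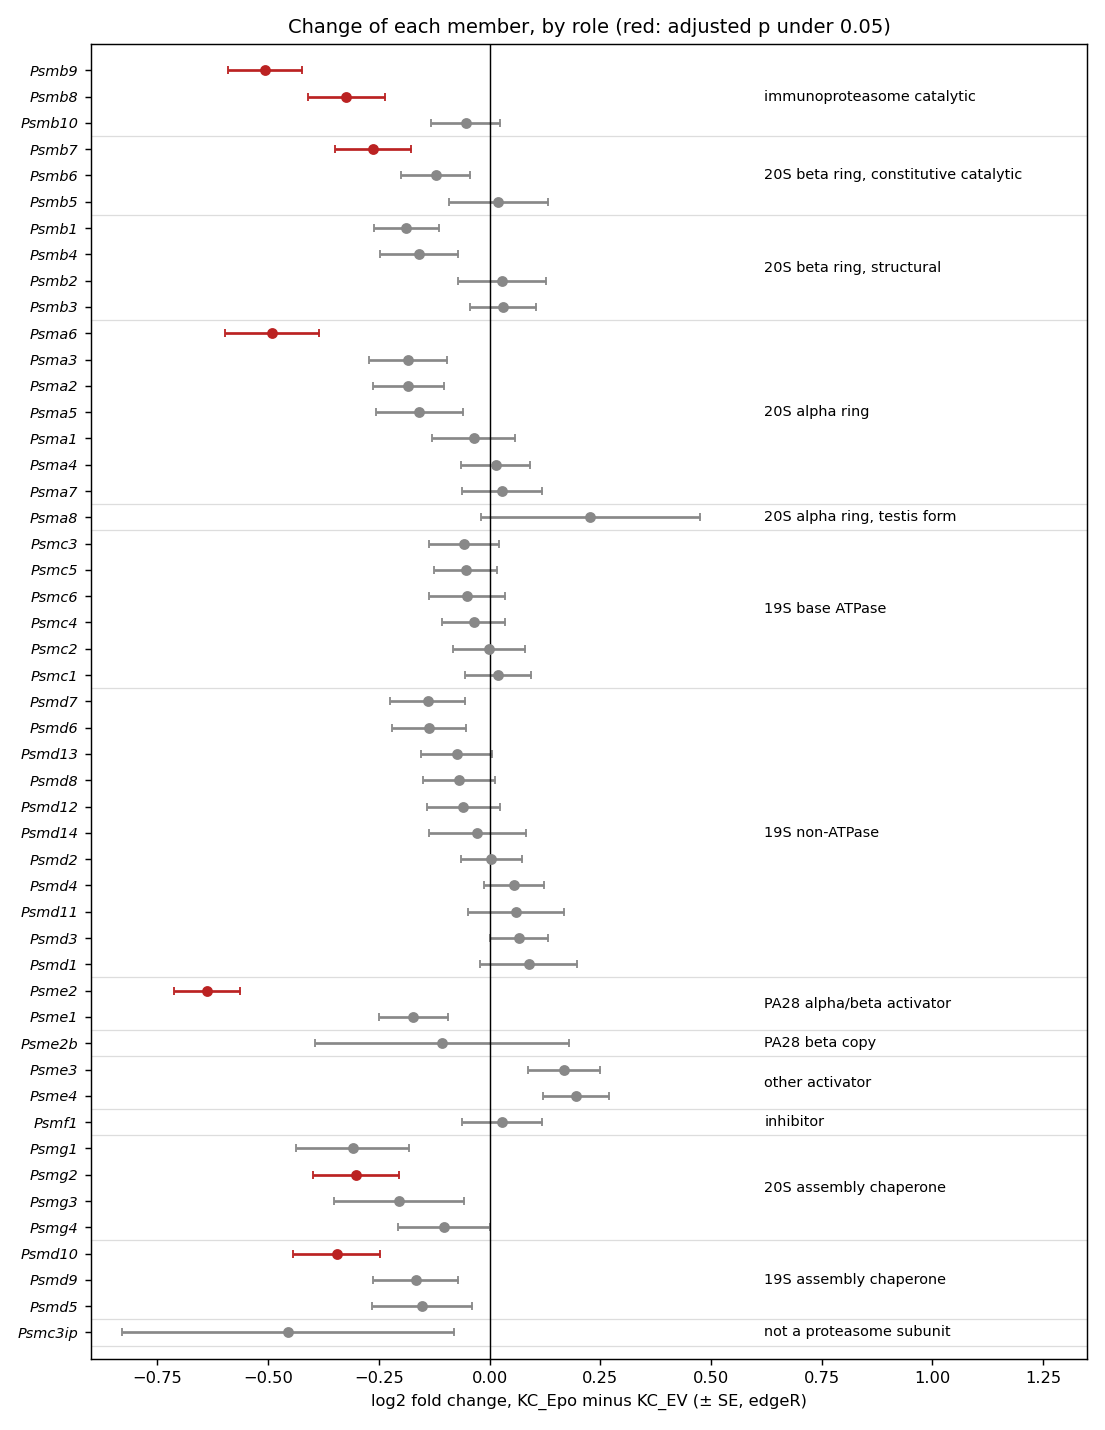
Log2 fold change of each of the 49 members (x axis, KC_Epo minus KC_EV, bars are SE from edgeR), grouped by role. Red points passed an adjusted p of 0.05; they run from -0.64 for Psme2 to -0.26 for Psmb7, and the 19S ATPase points lie between -0.06 and 0.02.

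Of the 5 immunoproteasome genes, 3 fell (Psme2, Psmb9 and Psmb8), and Psmb10 and Psme1 did not pass. Of the other 44 members 4 fell and 0 rose, which is 9.09%, where 15.4% of all genes tested were lower. The median log2 fold change was -0.32 over the 5 and -0.06 over the 44. Among the 31 genes of the constitutive 26S particle (20S alpha and beta rings and 19S cap, without chaperones), 2 fell, 0 rose, and the median was -0.05.

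Psme2, the beta chain of PA28, showed the largest change of the members. Its level was 324, 301 and 319 CPM (counts scaled to library size with TMM factors) in KC_EV 1 to 3 and 190, 216 and 200 CPM in KC_Epo 1 to 3. All KC_Epo libraries lay below all KC_EV libraries. The log2 fold change was -0.64 ± 0.07 (SE, edgeR adjusted p = 6.23e-05), a fold of 0.643. Psme2b, a nearly identical copy of Psme2, can share its reads; it stood at 4.99 ± 1.39 and 4.64 ± 1.42 CPM (SD, n = 3) and did not pass (log2 fold change -0.11 ± 0.29, SE).

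Psme1, the alpha chain of the same activator, did not pass. It stood at 354, 335 and 362 CPM in KC_EV 1 to 3 and at 283, 336 and 313 CPM in KC_Epo 1 to 3. The groups overlapped, with -0.17 ± 0.08 on the log2 scale (SE; adjusted p = 0.114 by edgeR). Psme1 passed as lower with upper-quartile factors (-0.23, adjusted p = 0.04) and without KC_Epo 2 (-0.23, adjusted p = 0.0489). Psme1 overlaps Emc9 in RefSeq, and the sources used here do not give whether counting used strand. The ratio of Psme2 to Psme1 counts within a library needs no scaling. For KC_EV 1 to 3 it was 0.915, 0.899 and 0.880, and for KC_Epo 1 to 3 it was 0.670, 0.643 and 0.639. The KC_Epo ratios were all lower, by 0.46 ± 0.03 on the log2 scale (SE; exact permutation test, two-sided, p = 0.1, the smallest that 3 against 3 allows). This ratio was chosen after the values were seen.

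Psmb9, which replaces Psmb6 in the immunoproteasome, fell. It stood at 173, 177 and 182 CPM in KC_EV 1 to 3 and at 111, 139 and 124 CPM in KC_Epo 1 to 3. The groups did not overlap, and the difference was -0.51 ± 0.08 on the log2 scale (SE; adjusted p = 0.000762 by edgeR). Tap1, across the short promoter printed above, also fell, from 321, 357 and 367 CPM to 218, 254 and 228 CPM. Its log2 fold change was -0.58 ± 0.08 (SE, edgeR adjusted p = 0.000269). In both genes KC_Epo 1 was the lowest library and KC_Epo 2 the highest of its group. KC_Epo 1 was also the lowest KC_Epo library for 35 of 49 members and all 5 immunoproteasome genes. Its low place was thus not particular to this pair.

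Psmb8, which replaces Psmb5, fell as well. It stood at 208, 202 and 211 CPM in KC_EV 1 to 3 and at 143, 180 and 174 CPM in KC_Epo 1 to 3, again with no overlap. The log2 fold change was -0.32 ± 0.09 (SE, edgeR adjusted p = 0.0149). The call was lost without KC_EV 3 (-0.31, adjusted p = 0.0618).

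Psmb10, which replaces Psmb7, did not pass. It stood at 177, 198 and 199 CPM in KC_EV 1 to 3 and at 173, 198 and 183 CPM in KC_Epo 1 to 3. The groups overlapped, and the log2 fold change was -0.05 ± 0.08 (SE, edgeR adjusted p = 0.635). Unlike Psmb8 and Psmb9 it lies outside the MHC region, on another chromosome. Psme2, which fell, also lies outside that region, and Tap2, which did not pass, lies within it. A part of gene position in the changes was not tested.

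**Figure D2:**
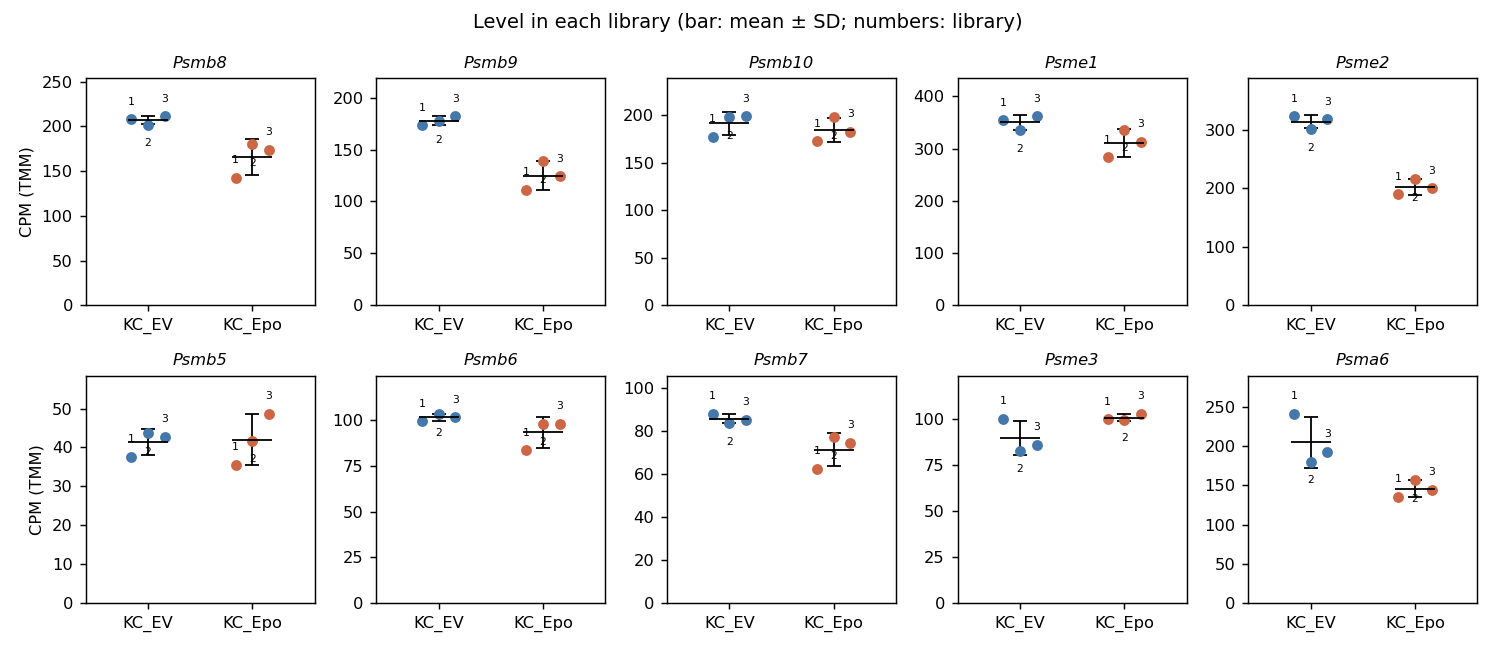
Level in each library (y axis, TMM-scaled CPM, from 0) of the 5 immunoproteasome genes in the upper row and of Psmb5, Psmb6, Psmb7, Psme3 and Psma6 in the lower row; numbers mark libraries and bars are mean ± SD. Psme2, Psmb9, Psmb8, Psmb6, Psmb7 and Psma6 show no overlap between groups, and Psmb10, Psme1, Psmb5 and Psme3 do.

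The constitutive counterparts were read beside them. Psmb5, the chymotrypsin-like subunit, averaged 41.4 ± 3.28 CPM in the KC_EV libraries and 42.0 ± 6.51 CPM in the KC_Epo libraries (SD, n = 3), a difference of 0.02 ± 0.11 on the log2 scale (SE; adjusted p = 0.91 by edgeR). Psmb6, the caspase-like subunit, had levels of 99.6, 103 and 102 CPM in the KC_EV libraries and 83.7, 98.2 and 98.1 CPM in the KC_Epo libraries. These did not overlap, but the log2 fold change of -0.12 ± 0.08 (SE) did not pass (edgeR adjusted p = 0.254). Psmb7, the trypsin-like subunit, fell, from 88.0, 83.8 and 85.3 CPM to 62.5, 77.2 and 74.7 CPM, with no overlap. Its log2 fold change was -0.26 ± 0.09 (SE, edgeR adjusted p = 0.0332). Leaving out any library but KC_Epo 2 ended the call of Psmb7 (adjusted p of 0.0748 to 0.0989), and without KC_Epo 1 its log2 fold change was -0.17. A pseudogene overlaps Psmb7 in RefSeq.

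Each pair occupies the same place in the particle, so the count ratio of the immunoproteasome form to the constitutive form was taken within each library. A ratio of counts compares 1 gene pair between libraries and says nothing of which form had more molecules. Psmb8 to Psmb5 was 5.53, 4.62 and 4.94 for KC_EV 1 to 3, against 4.003, 4.31 and 3.58 for KC_Epo 1 to 3. Psmb9 to Psmb6 was 1.74, 1.71 and 1.79 in KC_EV and 1.33, 1.42 and 1.27 in KC_Epo. Both ratios were lower in every KC_Epo library than in any KC_EV library. The log2 differences were -0.34 ± 0.11 and -0.39 ± 0.05 (SE).

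Psmb10 to Psmb7 went the other way, from 2.02, 2.37 and 2.33 to 2.77, 2.57 and 2.45. This ratio was higher in every KC_Epo library, by 0.21 ± 0.09 on the log2 scale (SE), with Psmb7 at -0.26 and Psmb10 at -0.05 in the test above. For each of these ratios the exact permutation p was 0.1, two-sided, and 0.1 adjusted over 4 ratios including Psme2 to Psme1. That is the smallest p 3 against 3 allows, so none can pass 0.05.

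**Figure D3:**
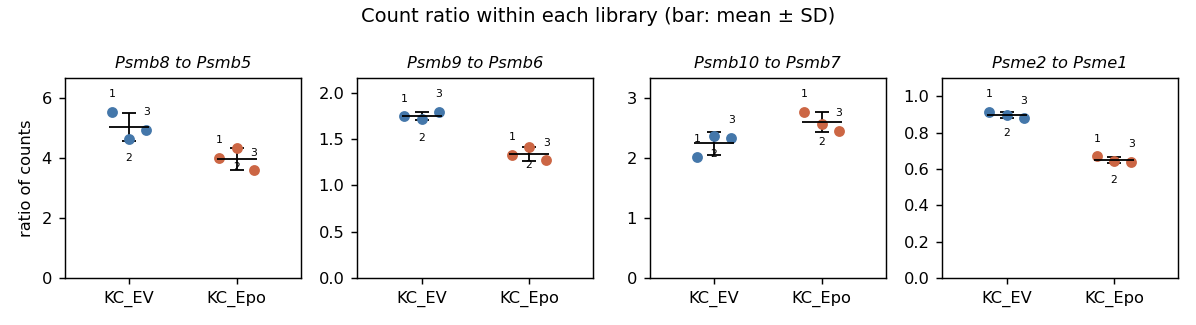
Count ratio within each library (y axis, from 0) for the replaced catalytic pairs and for Psme2 to Psme1, with libraries numbered and mean ± SD as bars. Psmb8 to Psmb5, Psmb9 to Psmb6 and Psme2 to Psme1 were lower in all KC_Epo libraries, and Psmb10 to Psmb7 was higher in all of them.

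Of the remaining 20S subunits, Psma6, an alpha ring subunit, was the only one to fall. It stood at 241, 180 and 193 CPM in KC_EV 1 to 3 and at 136, 157 and 145 CPM in KC_Epo 1 to 3. KC_EV 1 stood above the other libraries of its group, and the groups did not overlap. The log2 fold change was -0.49 ± 0.11 (SE, edgeR adjusted p = 0.00552). Without KC_EV 1 it still passed, at -0.35 (adjusted p = 0.0115). A ribosomal protein pseudogene overlaps Psma6 in RefSeq. The other alpha subunits of the constitutive ring ran from -0.18 for Psma3 and Psma2, over -0.16 for Psma5 and -0.04 for Psma1, to 0.01 for Psma4 and 0.03 for Psma7, and none passed. Of the structural beta subunits, which carry no catalytic site, Psmb1 was at -0.19, Psmb4 at -0.16, Psmb2 at 0.03 and Psmb3 at 0.03. Psma8, which replaces an alpha subunit in the testis, was low, at 4.04 ± 0.44 and 4.71 ± 1.22 CPM (SD, n = 3).

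None of the 6 ATPase and 11 non-ATPase members of the 19S cap passed; Sem1 and Adrm1, which the rule does not cover, are given with the assembly factors. All 6 ATPases of its base, which unfold the substrate, lay between -0.06 and 0.02 on the log2 scale: Psmc3 at -0.06, Psmc5 at -0.05, Psmc6 at -0.05, Psmc4 at -0.04, Psmc2 at -0.0020 and Psmc1 at 0.02. The 11 non-ATPase subunits ran from -0.14 to 0.09, and none passed. Psmd7 and Psmd6, of the lid, were at -0.14 each, Psmd13 and Psmd8 at -0.07 each, Psmd12 at -0.06 and Psmd14, the deubiquitinase of the lid, at -0.03. Psmd2, a scaffold of the base, was at 0.0037, the ubiquitin receptor Psmd4 at 0.06, Psmd11 at 0.06, Psmd3 at 0.07 and Psmd1 at 0.09. Psmd2 averaged 197 ± 7.85 CPM in the KC_EV libraries and 197 ± 7.31 CPM in the KC_Epo libraries (SD, n = 3).

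Activators other than PA28 alpha and beta did not pass, with positive log2 fold changes. Psme3, the nuclear PA28 gamma, stood at 100.2, 82.8 and 86.1 CPM in KC_EV 1 to 3 and at 99.9, 99.7 and 103 CPM in KC_Epo 1 to 3. KC_EV 1 lay among the KC_Epo libraries, and the log2 fold change of 0.17 ± 0.08 (SE) did not pass (edgeR adjusted p = 0.129). Psme4, the nuclear activator PA200, stood at 75.6, 66.0 and 67.5 CPM in the KC_EV libraries and at 78.9, 81.0 and 79.4 CPM in the KC_Epo libraries. Its groups did not overlap, but 0.19 ± 0.07 (SE) did not pass (edgeR adjusted p = 0.0642). Without KC_EV 1 both passed as higher, Psme3 at 0.26 (adjusted p = 0.0154) and Psme4 at 0.26 (adjusted p = 0.0158). The inhibitor Psmf1 was at 0.03.

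Of the 7 assembly chaperones, 2 fell and 0 rose, where 15.4% of all genes tested were lower and 16.9% higher. All 4 chaperones of the 20S alpha ring had negative log2 fold changes, and Psmg2 fell, from 27.1, 26.2 and 25.2 CPM to 22.1, 19.8 and 21.8 CPM. The groups did not overlap, at -0.30 ± 0.10 (SE, edgeR adjusted p = 0.0324). Its partner Psmg1 was at -0.31 ± 0.13 (SE, edgeR adjusted p = 0.082), Psmg3 at -0.20 and Psmg4 at -0.10. Among the chaperones of the 19S base Psmd10, also known as gankyrin, fell, from 35.5, 30.6 and 32.7 CPM to 23.9, 28.0 and 25.9 CPM, again without overlap (-0.35 ± 0.10, SE, edgeR adjusted p = 0.0185). Psmd9 at -0.17 and Psmd5 at -0.15 did not pass. Psmd10 overlaps Atg4a in RefSeq. The call of Psmg2 was lost when any library but KC_Epo 1 was left out (adjusted p of 0.0613 to 0.112), and that of Psmd10 without KC_EV 1, KC_EV 3, KC_Epo 1 or KC_Epo 3 (0.0547 to 0.0743). Psmc3ip was at -0.46 ± 0.38 (SE) from 1.71 and 1.25 CPM, and did not pass.

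**Figure D4:**
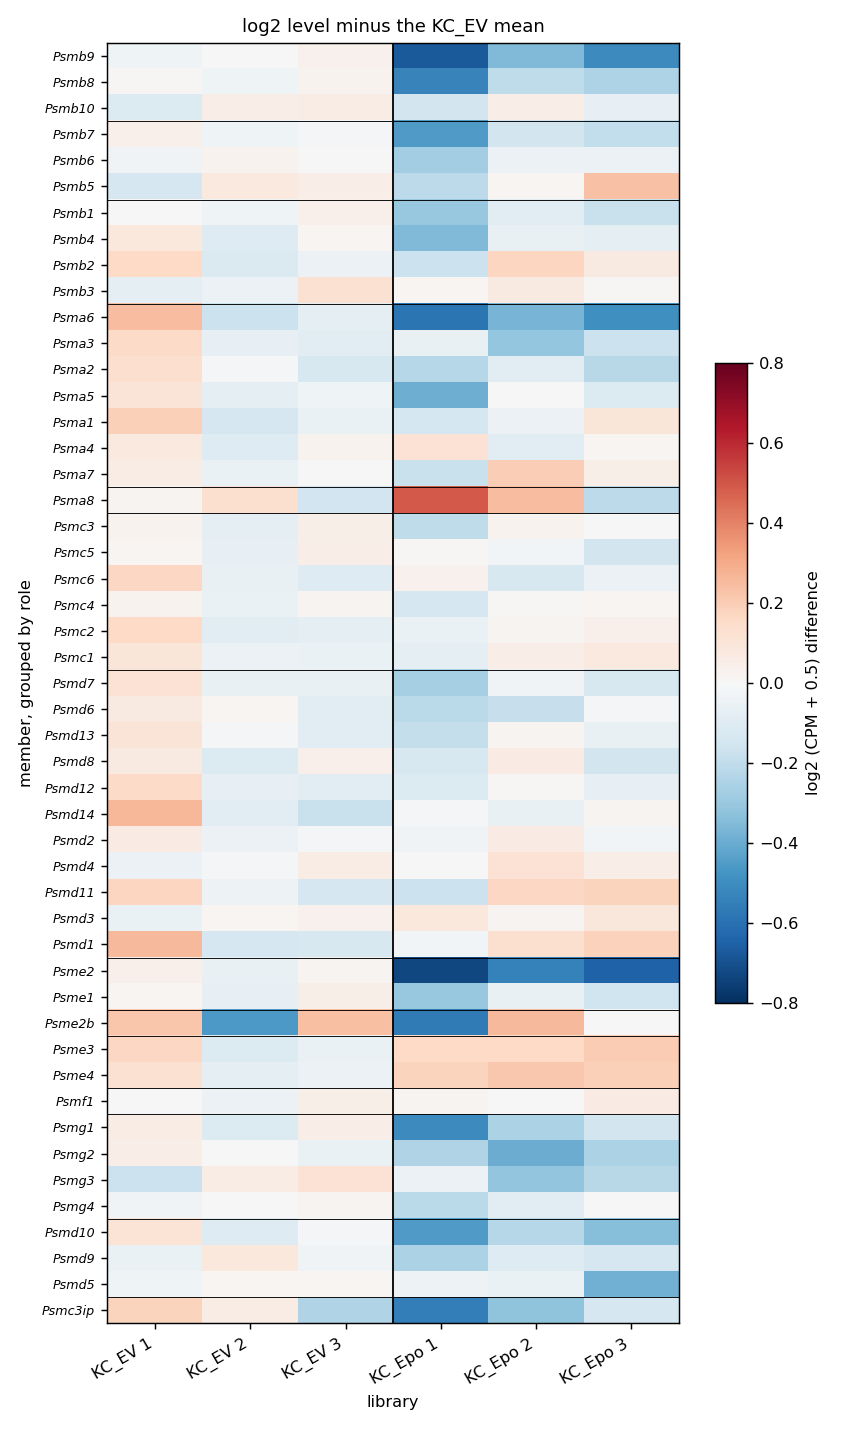
Level of each member in each library as log2 (CPM + 0.5) minus its KC_EV mean, blue for lower and red for higher, with lines between roles. Psme2, Psmb9, Psmb8 and Psma6 are blue in all 3 KC_Epo columns, as are others such as Psmd10, Psmg2, Psmg1 and Psmb7. The ATPase and non-ATPase rows of the 19S cap stay pale, and KC_Epo 1 is the darkest KC_Epo column.

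The KC_Epo libraries differed among themselves. KC_Epo 1 was the lowest of the 6 libraries for 30 of 49 members and for all 5 immunoproteasome genes, while KC_EV 1 was the highest for 23. This order was not counted over all genes tested, so it is not shown to be particular to the members. The median log2 deviation of the 5 immunoproteasome genes from their KC_EV mean was -0.54 in KC_Epo 1, -0.20 in KC_Epo 2 and -0.25 in KC_Epo 3. For the 31 genes of the constitutive particle it was -0.14, 0.01 and -0.01. Without KC_Epo 1, 6 of 49 members were lower: Psme2, Psmb9, Psmb8 and Psma6 again, with Psmg2 and Psma3. In the same fit 16.04% of the 13383 genes tested were lower. The median log2 fold change there was -0.22 over the 5 and -0.01 over all genes tested. The members together held 0.507 to 0.542% of all counts in KC_EV and 0.407 to 0.439% in KC_Epo. These are shares of library totals without TMM factors. With library sizes only the median log2 fold change of all genes was itself -0.16. The 5 genes made up 23.9 to 25.95% of the member counts in KC_EV and 21.2 to 22.7% in KC_Epo.

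Other transcripts split the same libraries. Total counts ran from 23201076 to 33280754, and TMM factors from 1.05 to 1.07 in the KC_EV libraries and from 0.934 to 0.959 in the KC_Epo libraries. Counts of Epo were 29, 44 and 21 in KC_Epo 1 to 3 and 0 in all KC_EV libraries. Of 18 Kupffer cell markers 13 were higher and 1 lower, Adgre1 (F4/80) at -0.72, and their sum was 40678 to 43682 CPM in KC_EV and 59624 to 68940 CPM in KC_Epo. Sinusoidal endothelial markers were lower in 12 of 16 cases and higher in 1 (5960 to 7110 CPM summed in KC_EV, 2689 to 3834 in KC_Epo). Hepatocyte markers were higher in 15 of 18 cases (3207 to 4021 CPM, and 25148, 7474 and 15151 CPM in KC_Epo 1 to 3). Erythroid markers were higher in 7 of 7 tested (33.5 to 43.1 CPM and 606 to 1109 CPM), and dendritic cell markers were lower in 6 of 11 (290 to 337 CPM and 280 to 299 CPM). Of the erythroid markers not tested, Epb42 had 0 counts in KC_EV and 21 in KC_Epo, and Klf1 had 13 and 11. Of 16 proliferation genes 14 were lower (593 to 636 CPM and 412 to 438 CPM). Of 9 monocyte markers 3 were higher and 2 lower, of 9 neutrophil markers tested 1 was lower (17.7, 160.0 and 296 CPM summed in KC_EV 1 to 3, 34.1 to 36.4 CPM in KC_Epo; median log2 fold change -1.84), of 11 T and NK cell markers 1 was lower and of 7 B and plasma cell markers 2 were higher. No marker but Epb42 was at 0 throughout a group. The part of these cells in the results was not tested. With the 20 most abundant genes and the hepatocyte, erythroid and endothelial markers taken out of the table, the same 7 members were called and the median of the 5 was -0.32. Any reads that such cells gave to the members stay in the counts, so this does not test their part.

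Levels between genes were compared per length, as CPM per kilobase of the longest coding transcript in GENCODE M21, which gave a length for all 49 members. PA28 alpha and beta stood highest, at 315 ± 12.4 for Psme1 and 327 ± 12.2 for Psme2 in KC_EV (SD, n = 3), which do not differ beyond their spread. In KC_Epo they stood at 280 ± 24.0 and 210 ± 13.9, and no longer overlapped within 1 SD. Among the catalytic immunoproteasome subunits KC_EV had Psmb10 at 146 ± 9.37, Psmb9 at 131 ± 3.23 and Psmb8 at 127 ± 2.97. In KC_Epo Psmb10 at 141 ± 9.75 stood above Psmb8 at 102 ± 12.4 and Psmb9 at 92.4 ± 10.3. Their constitutive counterparts stood at 127 ± 2.46 for Psmb6, 73.9 ± 1.85 for Psmb7 and 46.0 ± 3.65 for Psmb5 in KC_EV, so that the immunoproteasome form was the higher of the pair for Psmb8 and Psmb10, and Psmb9 and Psmb6 lay close. In KC_Epo Psmb6, at 117 ± 10.4, was above Psmb9. Alpha ring subunits ran from 45.6 for Psma2 to 196 for Psma6 in KC_EV, 19S ATPases from 33.8 to 91.7 and 19S non-ATPases from 19.4 to 67.5. Psme4 at 10.7 and Psmf1 at 6.67 were lower than any of these. Annotated lengths need not be those used in these cells: with all annotated exons, Psmb1 was at 39.4 in place of 68.6.

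**Figure D5:**
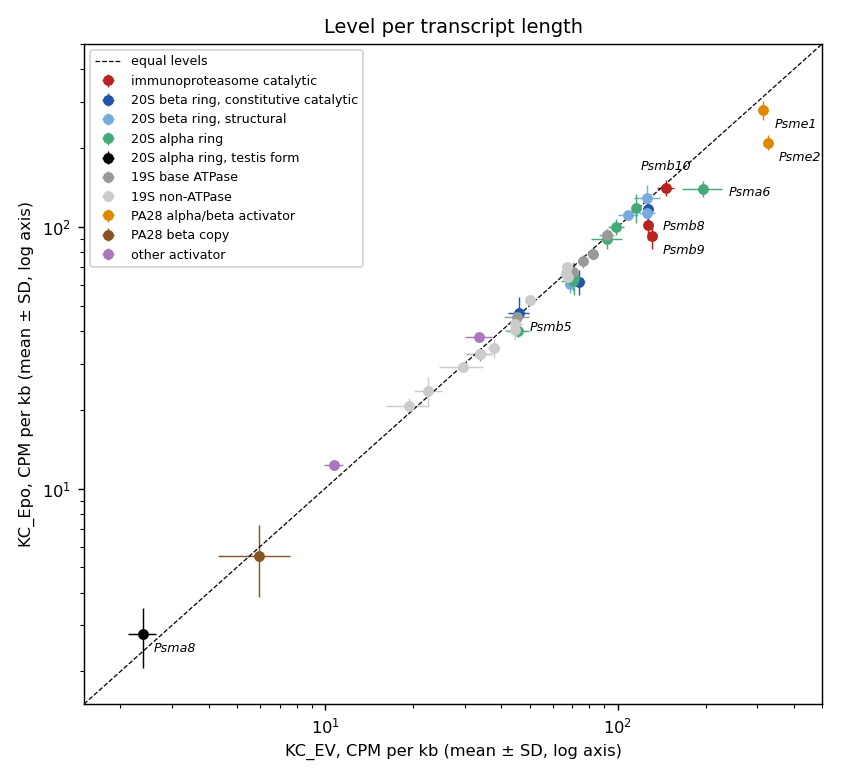
Level per kilobase of the longest coding transcript in KC_EV (x axis) and KC_Epo (y axis), mean ± SD over 3 libraries, both axes log scale, coloured by role (chaperones, Psmf1 and Psmc3ip are not drawn); the dashed line marks equal levels. Psme1 and Psme2 stand highest, and Psme2, Psmb9, Psmb8 and Psma6 lie below the line.

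Of 18 assembly factors, ubiquitin receptors and shuttle factors 2 rose and 3 fell (median 0.01). That is 27.8%, below the 32.3% called over all genes. Pomp, the chaperone that matures the 20S core, fell from 196 ± 5.39 to 166 ± 7.96 CPM (SD, n = 3; -0.25 ± 0.07, SE, edgeR adjusted p = 0.017). The call of Pomp was lost without KC_EV 2, KC_Epo 2 or KC_Epo 3 (adjusted p up to 0.0597). Sem1, a small lid subunit whose symbol the rule does not cover, was lower at -0.29 (adjusted p = 0.0635 without KC_EV 3), and Zfand2a, a stress-induced proteasome adaptor, at -0.47. Zfand5, which activates the proteasome, was higher at 0.48 and Adrm1, a ubiquitin receptor of the 19S cap, at 0.35. With library sizes only Adrm1 did not pass (0.19, adjusted p = 0.0768).

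Transcription factors of constitutive proteasome genes were read from their own list. Nfe2l1, encoding NRF1, which restores proteasome genes when the proteasome is impaired, was at -0.17 ± 0.06 (SE) and did not pass (edgeR adjusted p = 0.063). It passed as lower with a filter of 1 CPM (adjusted p = 0.0447), upper-quartile factors (0.0172) or library sizes only (0.00186). Nfe2l2, encoding NRF2, fell by 0.22 on the log2 scale (edgeR adjusted p = 0.0428), a call lost without any single library but KC_Epo 1 (adjusted p of 0.0905 to 0.16). It was also lost with no filter (0.0538) and with the replicate block (0.065). Of the 10 genes tested in this list 2 rose and 2 fell, which is 40.0%, where 32.3% of all genes tested were called. Among them were Keap1, the adaptor that directs NRF2 to degradation, at 0.40, Mafg at 0.31 and Maff at -0.63. The call of Mafg was lost with library sizes only (0.15, adjusted p = 0.183) and without KC_EV 1 or KC_Epo 3 (0.0625 and 0.0679), and that of Maff without KC_EV 2 or KC_Epo 3 (0.0607 and 0.0601). Of 16 ubiquitin precursor, E1 and unfoldase genes 2 rose and 0 fell (12.5%, against 32.3% of all genes). Among them was Nploc4, a cofactor of the unfoldase Vcp, at 0.25. The call of Nploc4 was lost with upper-quartile factors (adjusted p = 0.0611), with library sizes only (0.305) and without KC_EV 2 or KC_Epo 3 (0.0829 and 0.0712). Vcp itself was at 0.0031 and Ubb, a polyubiquitin gene, at -0.05.

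Of 14 regulators between interferon-gamma and the immunoproteasome, 6 fell and 3 rose (median -0.17). That is 64.3%, where 32.3% of all genes were called. Irf1, a transcription factor of immunoproteasome genes, fell from 439, 456 and 451 CPM in KC_EV 1 to 3 to 348, 337 and 349 CPM in KC_Epo 1 to 3 (-0.38 ± 0.07, SE, edgeR adjusted p = 0.00108). Nlrc5, the transactivator of MHC class I genes, fell from 162, 169 and 171 CPM to 123, 133 and 117 CPM (-0.43 ± 0.07, SE, edgeR adjusted p = 0.000827). Neither overlapped between groups. Socs1, an inhibitor of the pathway, fell by 1.39 on the log2 scale, the kinase Jak2 by 0.51 and Ifng itself, the cytokine, by 1.12, from 5.27 to 2.43 CPM. Irf8, a macrophage transcription factor, rose by 0.48, and the receptor chain Ifngr1 by 0.26 and Stat2 by 0.20. The call of Ifng was lost without KC_EV 3 (adjusted p = 0.0539), and that of Ifngr1 with library sizes only (0.214) and without KC_EV 2, KC_EV 3 or KC_Epo 3 (0.0624 to 0.0741). The call of Stat2 was lost without any single library but KC_Epo 2 (0.0652 to 0.133), with the replicate block (0.0947), with library sizes only (0.688), with upper-quartile factors (0.158) and with a filter of 1 CPM (0.0538). Jak1, Irf2, Ifngr2, Socs3 and Irf9 did not pass, though each passed in 1 or more alternatives.

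Of 14 genes of peptide trimming and class I loading 3 rose and 1 fell (median 0.14). That is 28.6%, near the 32.3% of all genes. The gene that fell was Tap1. Tpp2, a cytosolic peptidase that trims proteasome products, rose by 0.45 ± 0.07 (SE, edgeR adjusted p = 0.000724) and Erap1, the trimming peptidase of the endoplasmic reticulum, by 0.25. The chaperone Calr rose by 0.25. Upper-quartile factors, library sizes only or leaving out KC_EV 2, KC_EV 3 or KC_Epo 3 ended the calls of both Erap1 (adjusted p of 0.0869 to 0.378) and Calr (0.0949 to 0.349). So did leaving out KC_Epo 1 for Erap1 (0.0601), and the replicate block (0.0805) or leaving out KC_Epo 2 (0.0506) for Calr. B2m, the invariant chain of MHC class I, was at -0.16 and Tap2, which pairs with Tap1, at -0.21, and neither passed. With library sizes only both passed as lower, as did Tap2 with upper-quartile factors (adjusted p = 0.0397) and without KC_EV 1 (-0.31, adjusted p = 0.00906).

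The split between calls in either direction depended on the scaling. With TMM factors 52.4% of the called genes were higher, 40.6% when upper-quartile factors were used and 24.8% when only library sizes were, on which the median of all genes was -0.16. On that last scale 25 members were lower, all 5 immunoproteasome genes and 16 of the 31 constitutive genes among them, and 0 were higher. Over all genes tested 27.6% were lower on it. The medians on it were -0.48 for the 5 and -0.21 for the 31, both read against the -0.16 of all genes. Psme2, Psmb9 and Psma6 were called lower under every scaling, filter and tool tried and without any 1 library.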

How the data were processed

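Libraries from 3 KC_EV and 3 KC_Epo sorts were made with a stranded polyA kit, per the labels' protocols. Tools listed in the submitters' processing notes are STAR 2.7.3a, HTSeq 0.11.2, Bowtie2 2.5.1 and FastQC 0.11.8, with the build GRCm39 and no role or order. Whether counting used strand was not given in the sources used here. Read counts per gene symbol, whole and not normalized, were deposited by the authors for 15458 rows. Where a symbol stood on 2 rows (12 symbols), the row with fewer counts was kept as a row of its own.

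The test was the robust quasi-likelihood F test of edgeR 4.0.16 (in R 4.3.3), with TMM factors, filterByExpr defaults and Benjamini-Hochberg adjustment over 13120 genes. Standard errors were taken from the F statistic. Ratios of replaced subunits were tested by exact permutation. Library pairs of 1 group differed by a chi-square of 6.12 or more per gene, so none was a copy. The procedure was tested on simulated counts. Alternatives were other size factors and filters, a non-robust fit, a replicate block, DESeq2 1.42.0, limma-voom (limma 3.58.1) and each library left out.

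Full values were given for Psmb5 to Psmb10, Psme1 to Psme3 and up to 5 other called members, with every member named once. Outside the members they were given for Pomp, Nfe2l1, Nfe2l2, Irf1, Nlrc5, Tap1 and up to 3 called genes per pathway list; some genes of these lists are not reported here. Other genes with values (among them Psme4, Psmg1, Psma8, Psmd2, Adgre1, Sem1, Ifng, Ifngr1, Stat2, Calr and B2m) were chosen after their values were seen. The members and lists were chosen with earlier results of these data known. Protein sequences were not used here, so the planned identities between subunits were not computed.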

Additional observations from a re-analysis of the deposited data

How the results depend on the processing

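No gene called in the comparison or under an alternative, among those named, had opposite signs in both. The split over all genes turned over: 2219 higher and 2015 lower became 1724 and 2527 with upper-quartile factors. RLE factors, removal of the marker and 20 most abundant genes, no filter, a non-robust fit, DESeq2, limma-voom and a filter of 1 CPM in 3 libraries each called the same 7 members lower and 0 higher. Upper-quartile factors called 11 members, all 11 lower, with 4 of the constitutive 26S genes, where 19.3% of all genes tested were lower. Library sizes only called 25, all 25 lower, with 5 immunoproteasome and 16 constitutive genes, and 1193 genes higher and 3616 lower in all. Of all genes tested 27.6% were lower on that scale. The count of members called ran from 3 to 8 when 1 library was left out, those lower from 3 to 8 and those higher from 0 to 2, and lower constitutive genes from 1 to 3. All genes called ran from 2728 to 4557, the higher from 1477 to 2410 and the lower from 1251 to 2147. The call of Psmb8 depended on KC_EV 3, and those of Psmb7, Psmd10 and Psmg2 on most single libraries. Members without a call changed sign in 12 cases with library sizes only, 10 with upper-quartile factors and 8 without KC_EV 1. Deviations of same-numbered libraries from their group means correlated at -0.12, -0.18 and -0.03, and those of differently numbered libraries at 0.0025 to 0.17. With 3 libraries a group this cannot show whether libraries were handled in pairs. With the replicate block 4 members were called, all 4 lower (Psma6, Psmb8, Psmb9 and Psme2), 1 of them a constitutive gene, and 3358 genes in all. Over all genes tested 11.9% were lower with the block. The log2 difference of Psmb8 to Psmb5 ran from -0.41 to -0.27 with 1 library left out, that of Psmb9 to Psmb6 from -0.43 to -0.35 and that of Psmb10 to Psmb7 from 0.14 to 0.26. The cause of these differences was not tested. With 3 libraries a group, small differences may go uncalled, and a p that misses the threshold does not show equal levels.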
